A study of Homo sapiens with 8 samples.

Results

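The comparison described here is the effect of olaparib averaged over cells with and without palbociclib, in A2780, an established human ovarian carcinoma line. It used all 8 libraries of the study, 4 with olaparib against 4 without. They fall into 4 groups of 2 libraries each: DMSO (the solvent), olaparib alone, palbociclib alone, and olaparib with palbociclib, called the combination below, all harvested after 24 hours. The presence of palbociclib was fitted as a block, so each olaparib library was set against libraries with the same palbociclib treatment, and no interaction was fitted in the averaged effect. All cells come from the same line, every group received solvent or drug for the same time, and the sources used here give no dose. The labels describe the libraries of a group as biological repeats without saying that they came from separate cultures, so a p-value reflects the scatter of these samples, some of which may be technical.

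Olaparib inhibits PARP1 and PARP2, enzymes that sense DNA breaks and mark nearby proteins with chains of ADP-ribose, and it holds them on the DNA, where they become obstacles to replication forks. DNA damage stabilises the transcription factor p53, which switches on genes of cell cycle arrest, apoptosis, repair and metabolism. Palbociclib inhibits CDK4 and CDK6, the cyclin D kinases that phosphorylate RB1 and so release the E2F factors that drive S phase genes. Ribosomes are assembled in the nucleolus by a large set of processing factors, many of which are known targets of MYC.

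RNA was polyA-selected and levels are in FPKM, that is fragments scaled by exon length and by a size factor of the library. The reads recovered from the FPKM values numbered 20566158 to 34057055 per library. Markers of epithelial, immune and endothelial cells were at or near 0: all 15, all 12 and all 6 had a mean below 1 FPKM, with highest means of 0.605, 0.814 and 0.182. Epithelial keratins and CDH1 were thus absent or very low, whereas 13 of 18 mesenchymal markers had a mean of at least 1 FPKM and VIM reached a mean of 292 FPKM. Of 6 keratinocyte markers only KRT10 passed that level. The summed FPKM ran from 264453 to 284708 in olaparib libraries and from 274426 to 295656 in the others, lower with olaparib within each palbociclib state (log2 ratio −0.05). Its exact permutation p was 0.0556, the smallest that 36 regroupings within the states allow, and 0.25 after adjustment over 9 library measures. Mitochondrial transcripts took 4.73 to 5.50% of reads with olaparib and 4.37 to 5.22% without, a difference that gave an exact permutation p of 0.167 (adjusted 0.375). 7SK, a small nuclear RNA without a polyA tail, differed widely between the libraries. It stood at 1.12 and 2.05 FPKM in DMSO, 23.1 and 48.4 under olaparib, 23.9 and 7.67 under palbociclib, and 4.14 and 2.90 under both drugs.

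The averaged olaparib effect was small in size and broad. Of 12443 genes with a mean of at least 1 FPKM, 1801 (14.5%) passed an adjusted p of 0.05 in limma, 442 (3.55%) higher with olaparib and 1359 (10.9%) lower. A change of at least 1.5-fold on the scale of log2(FPKM + 1) was reached by 23 of the higher genes (0.185% of those tested) and 10 of the lower (0.0804%). The median over all tested genes was −0.02. In bulk RNA, fewer cells in a state (such as S phase) and less of a message per cell cannot be told apart. Without any test, both olaparib libraries lay above both of their counterparts in each palbociclib state for 1066 genes (8.57%) and below for 2375 (19.1%). Among the called protein-coding genes, 348 of 363 higher and 1295 of 1312 lower were separated in that way.

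Falls were called more often among abundant messages. With protein-coding genes ranked by mean FPKM into 5 equal classes, the share called lower was 0.934%, 5.01%, 11.3%, 18.4% and 28.9% from the weakest to the strongest class. The share called higher was 4.42%, 4.82%, 4.32%, 2.70% and 1.57% in the same order. The split between higher and lower calls also depended on how the libraries were put on a common scale. Of the calls, 24.5% were higher with the deposited scaling. With FPKM rescaled to a common sum (TPM) 58.0% were higher, with quantile normalisation 49.8%, and with median-of-ratios rescaling over the tested genes 36.4%. Tests of the recovered reads with voom put 42.8% of calls on the higher side with median-of-ratios library sizes, and 59.5% with library totals, a setting chosen after seeing the data. None of these scalings moved the median of all genes by as much as 0.1 on the log2 scale. It was −0.02 with the deposited scaling and 0.02 with TPM, a shift that matters for small differences. With TPM the median of the mitotic list went from −0.07 to −0.03, and that of the nucleolar list from −0.19 to −0.15.

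The calls depended on single libraries, most of all on those of DMSO. Their number rose when palbociclib replicate 2 or combination replicate 1 was left out, and dropped when any other library was. Leaving out DMSO replicate 1 left 161 genes called, and leaving out DMSO replicate 2 left 0. The count was 282 and 963 when olaparib replicate 1 or 2 was left out, 313 without palbociclib replicate 1, and 1165 without combination replicate 2. Without DMSO replicate 2 limma gave a lowest adjusted p of 0.0521, and 3071 genes had an unadjusted p under 0.05, against 4016 with all libraries. Every call of the averaged effect named below is therefore lost without DMSO replicate 2. Where a call was also lost without other libraries, the text names them or gives how many of the 8 fits with a library left out kept it. Without such a statement, a gene given with its difference kept its call in the other 7. An exact permutation test of single genes within the palbociclib states cannot give a p below 0.0556.

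**Figure D1:**
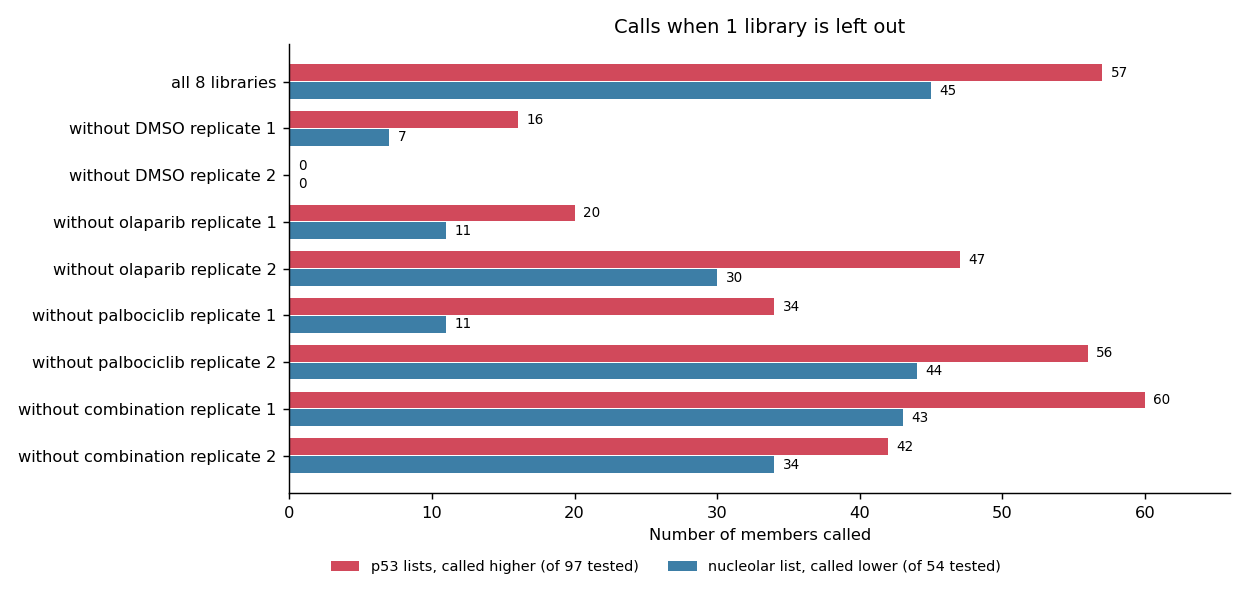
Number of members called (horizontal axis, genes) with all 8 libraries and with each library left out (vertical axis), for the p53 lists called higher (red, of 97 tested) and the nucleolar list called lower (blue, of 54 tested). With all libraries 57 and 45 members were called, and without DMSO replicate 2 both counts were 0.

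Among protein-coding genes, targets of p53 made up 12 of the 15 largest rises and all 9 called rises of at least 1.5-fold. The other 14 of the 23 rises of that size were of noncoding genes and pseudogenes. The 5 lists of known p53 targets, 121 genes in all, had 97 tested members. Of these 57 rose (58.8%, beside 3.55% of all genes) and 1 fell (1.03%, beside 10.9%). Their median was 0.20 on the log2 scale beside −0.02 for all genes tested. In 65 of the 97 the olaparib libraries lay above their counterparts in both palbociclib states, and in 2 below. The count of members that rose was 16 when DMSO replicate 1 was left out, 20 without olaparib replicate 1, and 34 when palbociclib replicate 1 was dropped. It was 62 with TPM scaling and 58 with quantile normalisation.

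Of 14 tested arrest and feedback genes 8 rose (57.1%, beside 3.55% of all genes) and none fell in limma, the others being without a call. CDKN1A (chromosome 6, 36676460 to 36687339, GENCODE v29 on GRCh38), which encodes the CDK inhibitor p21, was at 12.4 and 12.7 FPKM with DMSO and 30.5 and 31.7 with olaparib. Under palbociclib it was at 18.7 and 17.8 FPKM, and under both drugs at 24.5 and 28.1. Olaparib libraries were above the others in each state without overlap, with a log2 difference of 0.87 (SE 0.14, limma adjusted p = 0.0127), not called without DMSO replicate 1. BTG2 (chromosome 1, 203305491 to 203309602), an antiproliferative regulator of mRNA decay, was at 8.63 and 8.90 FPKM in DMSO, 19.8 and 21.6 under olaparib, 16.9 and 16.1 under palbociclib, and 21.8 and 24.2 under both drugs. Its difference was 0.80 (SE 0.13, limma adjusted p = 0.0133), not called without DMSO replicate 1 or olaparib replicate 1. The feedback inhibitors of p53 rose less. MDM2, the ubiquitin ligase that degrades p53, went from 6.30 and 6.27 FPKM with DMSO to 8.76 and 8.32 with olaparib, and from 5.39 and 4.97 with palbociclib to 6.38 and 5.75 with the combination. The MDM2 difference was 0.29 (SE 0.05, limma adjusted p = 0.0164), lost without DMSO replicate 1 or olaparib replicate 1. ZMAT3, an RNA-binding splicing regulator, rose by 0.34 (SE 0.04) and the kinase gene PLK3 by 0.39 (SE 0.07), with limma adjusted p of 0.0113 and 0.0152, PLK3 being lost also without DMSO replicate 1 or olaparib replicate 1. The remaining called members were GADD45A (called in 3 of 8 fits), PPM1D, which encodes a phosphatase that switches off p53 (2 of 8), and E2F7, a repressor of E2F targets (0 of 8).

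Death signalling genes rose in 11 of 15 tested (73.3%, beside 3.55% of all genes), with a median of 0.29. BBC3 (chromosome 19, 47220822 to 47232766, minus strand) encodes PUMA, which opens the mitochondrial route to apoptosis. It stood at 5.36 and 5.40 FPKM in DMSO, 9.92 and 12.4 under olaparib, 9.76 and 9.63 under palbociclib, and 12.1 and 14.7 under both drugs. All olaparib libraries were above their counterparts, while olaparib alone and palbociclib alone lay close together, and the log2 difference was 0.67 (SE 0.11, limma adjusted p = 0.0142), not called without DMSO replicate 1 or olaparib replicate 1. EDA2R (chromosome X, 66595637 to 66639298, minus strand), a receptor of the TNF receptor family, was at 3.74 and 3.90 FPKM in DMSO, 7.62 and 6.73 under olaparib, 4.26 and 4.29 under palbociclib, and 7.12 and 6.60 under both drugs. Levels with olaparib were thus similar with and without palbociclib, and the difference was 0.67 (SE 0.05, limma adjusted p = 0.00927). BAX, the pore-forming effector, rose by 0.38 (SE 0.06, limma adjusted p = 0.0132), from 58.4 and 60.2 FPKM to 81.0 and 89.0 without palbociclib and from 56.0 and 56.4 to 64.4 and 69.0 with it. SPATA18, which acts in mitochondrial quality control, rose by 0.56 (SE 0.09) and TP53I3, a quinone oxidoreductase gene, by 0.63 (SE 0.12), with limma adjusted p of 0.0127 and 0.0177. BAX and SPATA18 were not called without DMSO replicate 1, nor TP53I3 without that library, olaparib replicate 1 or palbociclib replicate 1. The decoy or death receptor genes TNFRSF10B and TNFRSF10D and the genes PIDD1, TRIAP1, AEN and NINJ1 were the other called members, in 2 to 6 of 8 fits.

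In the repair list 8 of 12 tested genes rose (66.7%, beside 3.55% of all genes), led by DDB2 and RPS27L. DDB2 (chromosome 11, 47214465 to 47239240), which recognises ultraviolet lesions in chromatin, was at 5.91 and 5.63 FPKM in DMSO, 10.5 and 10.1 under olaparib, 6.40 and 6.31 under palbociclib, and 8.82 and 8.71 under both drugs. The olaparib libraries were above the others in both states with little spread within a group, and the difference was 0.57 (SE 0.07, limma adjusted p = 0.0113). RPS27L, a paralogue of a ribosomal protein that binds MDM2, was at 7.83 and 8.49 FPKM in DMSO, 13.02 and 13.1 under olaparib, 7.27 and 6.56 under palbociclib, and 9.95 and 9.90 under both drugs. Its difference was 0.54 (SE 0.05, limma adjusted p = 0.00927), again without overlap in either state. RRM2B, the p53-inducible subunit of ribonucleotide reductase, rose by 0.37 (SE 0.04), and XPC, the other lesion sensor of nucleotide excision repair, by 0.35 (SE 0.05), both with a limma adjusted p of 0.0113. POLH, which copies past ultraviolet lesions, APOBEC3C, FBXO22 (3 of 8 fits) and ASCC3 (2 of 8) were also called.

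Metabolic targets and brakes on mTORC1 rose in 13 of 20 tested (65.0%, beside 3.55% of all genes). They include the largest rise among protein-coding genes. FDXR (chromosome 17, 74862497 to 74873031, minus strand) encodes ferredoxin reductase, which feeds electrons to mitochondrial iron-sulphur and steroid enzymes. It was at 19.7 and 21.2 FPKM in DMSO, 49.3 and 57.2 under olaparib, 27.4 and 26.8 under palbociclib, and 38.4 and 45.2 under both drugs. The olaparib libraries were clear of the others in both states, with a difference of 0.97 (SE 0.14, limma adjusted p = 0.0121). PHLDA3, which blocks AKT at the membrane, was at 7.25 and 8.55 FPKM in DMSO, 20.2 and 22.1 under olaparib, 9.96 and 9.95 under palbociclib, and 13.7 and 16.9 under both drugs. The difference in PHLDA3 was 0.94 (SE 0.15, limma adjusted p = 0.0132), not called without olaparib replicate 1. SESN1, a sestrin that restrains mTORC1, rose by 0.49 (SE 0.06), and ISCU, the scaffold on which iron-sulphur clusters are built, by 0.35 (SE 0.05), both with a limma adjusted p of 0.0113. ACER2, CROT, FUCA1, CMBL, NADSYN1, SESN2, CES2, DRAM1 and PHPT1 made up the remaining calls, in 1 to 5 of 8 fits.

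Secreted, surface and other targets rose in 17 of 36 tested (47.2%, beside 3.55% of all genes) and fell in 1 (2.78%, beside 10.9%). GDF15 (chromosome 19, 18374731 to 18389176), a stress cytokine, was at 2.15 and 2.64 FPKM in DMSO, 6.29 and 6.63 under olaparib, 5.76 and 5.29 under palbociclib, and 6.85 and 8.99 under both drugs. Palbociclib alone was also above DMSO in both libraries, and the olaparib difference was 0.79 (SE 0.15, limma adjusted p = 0.0169), not called without DMSO replicate 1 or olaparib replicate 1. CYFIP2, a subunit of the WAVE actin regulator, rose by 0.69 (SE 0.07, limma adjusted p = 0.0113), from 0.933 and 1.08 FPKM to 2.59 and 2.57 without palbociclib and from 1.26 and 1.23 to 2.21 and 2.31 with it. ANKRA2 rose by 0.49 (SE 0.06), SLC12A4, a potassium-chloride cotransporter, by 0.30 (SE 0.05) and TM7SF3 by 0.21 (SE 0.03), with limma adjusted p of 0.0113, 0.0126 and 0.0113. The member that fell was FHL2, a LIM domain cofactor named here after its values were seen, with a difference of −0.18 (SE 0.04, limma adjusted p = 0.0281), called in 2 of 8 fits. SLC12A4 was not called without DMSO replicate 1.

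**Figure D2:**
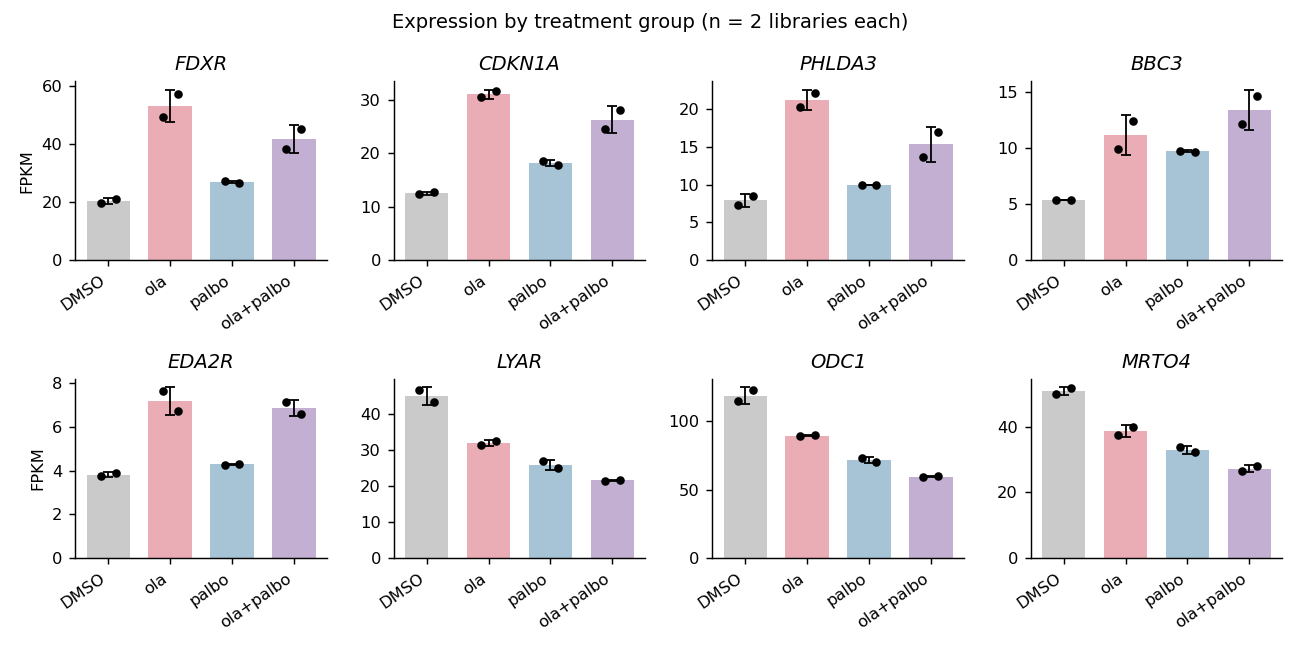
FPKM (vertical axes, linear, from 0) of 8 genes in libraries of the 4 groups, in the order DMSO, ola (olaparib), palbo (palbociclib) and ola+palbo (the combination). Bars are means, error bars SD (n = 2) and points single libraries. FDXR, CDKN1A, PHLDA3, BBC3 and EDA2R were higher and LYAR, ODC1 and MRTO4 lower in the olaparib libraries of both palbociclib states.

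Promoters of these genes were searched for the p53 half-site, a sequence of 10 bases bound by a p53 dimer, in the RefSeq windows from 250 bases before to 50 after the start (GRCh38.p14, both strands). Windows were found for 82 of the 97 tested p53 targets. A half-site was present in 6 of these 82 (7.32%) and in 5 of the 46 with a window that rose (10.9%), beside 6.54% of all 27305 windows and 4.95% of the windows of tested protein-coding genes. A full site, made of 2 half-sites with a spacer of at most 13 bases, was found in none of the 82 and in 8 of 27305 (0.0293%). A p53 site that departs from the searched letters would not be seen here. Nor would a site outside such a window, for instance in an enhancer or an intron. The 4 genes with the largest rises that held a half-site are shown because they place the motif relative to the start. Each line is 5′ to 3′ on the strand of the gene, with the half-site in capitals. The regions are chr17:74872975-74873074 (minus strand) for FDXR, chr15:63157482-63157581 (minus strand) for RPS27L, chr12:108562353-108562452 (plus strand) for ISCU and chr14:22598220-22598319 (plus strand) for ABHD4.
FDXR: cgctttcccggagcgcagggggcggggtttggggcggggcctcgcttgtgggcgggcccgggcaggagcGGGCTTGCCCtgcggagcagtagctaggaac
RPS27L: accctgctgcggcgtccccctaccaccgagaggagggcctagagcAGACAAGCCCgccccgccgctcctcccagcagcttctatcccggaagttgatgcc
ISCU: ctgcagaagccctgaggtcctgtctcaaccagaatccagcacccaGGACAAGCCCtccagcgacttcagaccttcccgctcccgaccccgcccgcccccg
ABHD4: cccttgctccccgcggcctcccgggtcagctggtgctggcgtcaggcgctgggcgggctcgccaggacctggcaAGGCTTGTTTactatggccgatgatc
The first base of the half-site lay at −11 in FDXR, −59 in RPS27L, −198 in ISCU and −6 in ABHD4, counted from the RefSeq start. ABHD4, a lipase gene of the last list, rose by 0.24 on the log2 scale (called in 5 of 8 fits), RPS27L by 0.54 and ISCU by 0.35.

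The median of the p53 targets was above 0 with and without palbociclib, and it was the smaller with the drug, although for no single target did the difference between the states pass the test. The contrasts in the 2 palbociclib states share no library. The median over the 97 tested targets was 0.27 without palbociclib and 0.15 with it, beside −0.03 and −0.02 over all genes. The effect without palbociclib was the larger in 83 of the 97, beside 8106 of the 12443 tested genes. Across the 97 targets the effects in the states had a Pearson r of 0.846 and a Spearman rho of 0.790, against 0.252 and 0.438 across all tested genes, which are not independent replicates. FDXR differed by 1.34 (SE 0.09) without palbociclib and 0.60 (SE 0.09) with it, CDKN1A by 1.24 (SE 0.06) and 0.50 (SE 0.06), and PHLDA3 by 1.32 (SE 0.11) and 0.57 (SE 0.11). EDA2R differed less between the states, with 0.76 (SE 0.06) and 0.57 (SE 0.06), as did RPS27L with 0.62 (SE 0.06) and 0.47 (SE 0.06). The difference of the effects, tested as an interaction over all genes in limma, passed an adjusted p of 0.05 for 1 gene (0.00804%), ENSG00000274519, which has no symbol in the annotation used and an interaction of −1.90 (SE 0.13), and for none of the targets. It had an unadjusted p under 0.05 for 36 of 97 beside 10.6% of all genes. For CDKN1A the interaction had an adjusted p of 0.159, and for FDXR 0.271.

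**Figure D3:**
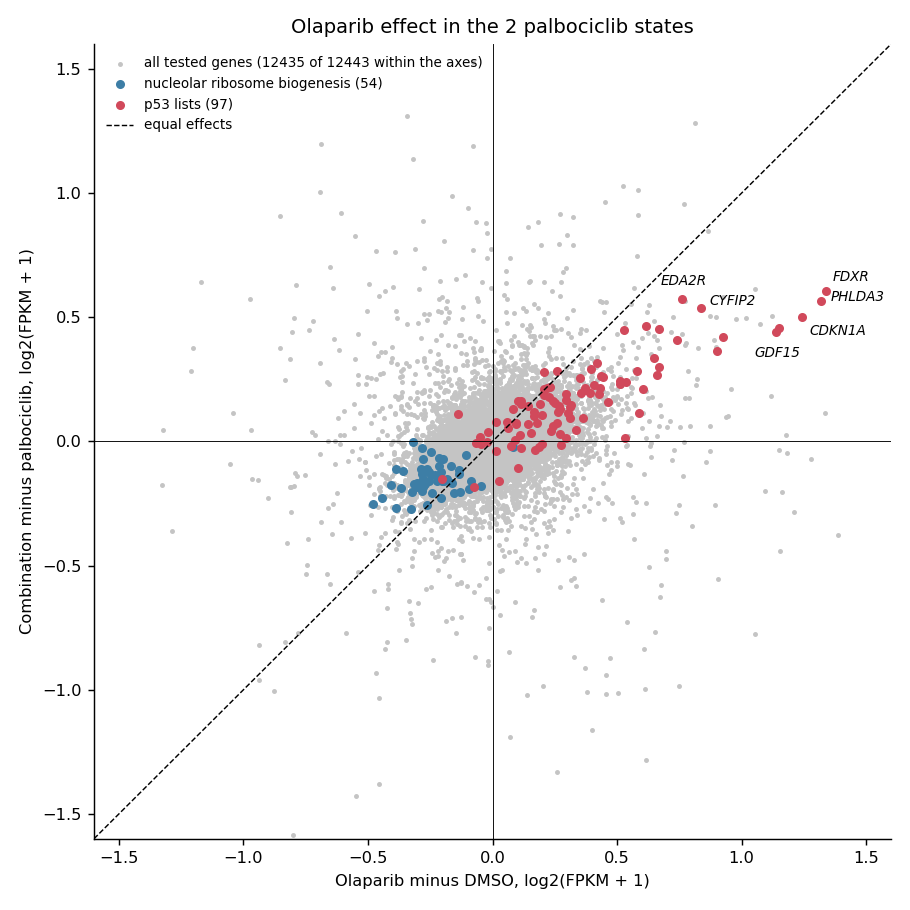
Olaparib effect without palbociclib (horizontal axis, olaparib minus DMSO) against that with palbociclib (vertical axis, combination minus palbociclib), both as differences of log2(FPKM + 1). Grey points are tested genes (12435 of 12443 lie within the axes), red points the 97 p53 targets, blue points the 54 nucleolar genes, and the dashed line marks equal effects. Red points such as FDXR (1.34 and 0.60) lie mostly to the right of 0 and below the line, and blue points lie mostly left of 0.

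Over all genes, limma called 1821 (14.6%) in the contrast without palbociclib, 514 higher (4.13%) and 1307 lower (10.5%). With palbociclib it called 3 (0.0241%), 1 higher (0.00804%) and 2 lower (0.0161%), although 2067 (16.6%) had an unadjusted p under 0.05. These counts differed with the libraries, since leaving out a DMSO or olaparib library left 13, 28, 268 and 33 calls without palbociclib for DMSO replicates 1 and 2 and olaparib replicates 1 and 2. A description without a test used the separation of libraries instead. Of 147 genes that lay higher with olaparib without palbociclib by at least 0.5 on the log2 scale, with no overlap, 70 (47.6%) were separated in the same direction with palbociclib, beside 18.1% of all genes. Of the 46 protein-coding genes among them 36 were. In the other order, 26 of 86 genes chosen with palbociclib (30.2%) were separated the same way without it, beside 23.3% of all genes, including 6 of 6 protein-coding genes. For genes that lay lower by 0.5 the shares were 14 of 75 (18.7%, beside 29.1% of all) and 19 of 75 (25.3%, beside 38.6% of all). These lower genes included 1 and 2 protein-coding genes. At a minimum of 0.3 the lower genes chosen without palbociclib were separated the same way in 185 of 346 (53.5%, beside 29.1% of all), and those chosen with it in 50 of 170 (29.4%, beside 38.6% of all).

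Most genes of nucleolar ribosome biogenesis fell. All 54 members were tested, and 45 fell in limma (83.3%, beside 10.9% of all genes and 28.9% of the strongest expression class). None rose, and the median was −0.19. In 48 of the 54 the olaparib libraries lay below their counterparts in both palbociclib states. The median was −0.26 without palbociclib and −0.16 with it. Palbociclib alone also lay below DMSO in each of the nucleolar genes described next. The lowest levels were those of the combination. The count of members that fell was 7 when DMSO replicate 1 was left out and 11 when either olaparib replicate 1 or palbociclib replicate 1 was, and it was 30 with TPM scaling and 24 with quantile normalisation.

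LYAR (chromosome 4, 4267701 to 4290169, minus strand), a nucleolar protein of pre-rRNA processing, was at 46.6 and 43.1 FPKM in DMSO, 31.3 and 32.5 under olaparib, 26.8 and 24.9 under palbociclib, and 21.5 and 21.7 under both drugs. Olaparib libraries were lower in both states without overlap, and LYAR fell by 0.36 on the log2 scale (SE 0.05, limma adjusted p = 0.0121). MRTO4 (chromosome 1, 19251539 to 19260128), an assembly factor of the large subunit, was at 50.02 and 51.6 FPKM in DMSO, 37.4 and 39.8 under olaparib, 33.9 and 32.1 under palbociclib, and 26.5 and 28.0 under both drugs. MRTO4 fell by 0.33 (SE 0.04, limma adjusted p = 0.0113), with the order of groups as in LYAR. Lower as well were NIP7 by a log2 difference of −0.30 (SE 0.03), NOLC1, a chaperone of small nucleolar ribonucleoproteins, by −0.26 (SE 0.03) and NOP58, a core protein of those particles, by −0.22 (SE 0.03). Each had a limma adjusted p of 0.0113. Among all protein-coding genes the 15 with the deepest falls included EBNA1BP2, SURF2 and PNO1, which are also ribosome assembly factors, with −0.36 (SE 0.05), −0.35 (SE 0.05) and −0.34 (SE 0.06). PNO1 was not called without DMSO replicate 1, olaparib replicate 1 or palbociclib replicate 1, and SURF2 not without DMSO replicate 1.

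The hexamer CACGTG, the E-box bound by MYC and related factors, reads the same on both strands. It was present in 18 of the 45 nucleolar genes with a RefSeq window (40.0%) and in 16 of the 38 of these that fell (42.1%). The share was 10.7% over the windows of tested protein-coding genes and 7.43% over all 27305. It was as frequent in the p53 death signalling list, which rose, with 5 of 12 windows (41.7%), and over all p53 targets it was in 8 of 82 (9.76%). A match is a description of the letters in this window and does not show binding. The 4 genes below had the deepest falls among those with a match, were chosen after their values were seen, and show the motif in capitals close to the start. The regions are chr2:68157808-68157907 (plus strand) for PNO1, chr1:19251725-19251824 (plus strand) for MRTO4, chr3:51941885-51941984 (minus strand) for RRP9 and chr12:101280025-101280124 (plus strand) for UTP20, from RefSeq on GRCh38.p14.
PNO1: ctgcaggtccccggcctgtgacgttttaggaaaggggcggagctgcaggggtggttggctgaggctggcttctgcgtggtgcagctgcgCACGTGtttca
MRTO4: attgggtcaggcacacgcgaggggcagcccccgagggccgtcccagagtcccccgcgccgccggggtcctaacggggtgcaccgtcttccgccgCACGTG
RRP9: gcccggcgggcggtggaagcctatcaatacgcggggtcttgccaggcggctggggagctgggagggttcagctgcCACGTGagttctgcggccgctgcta
UTP20: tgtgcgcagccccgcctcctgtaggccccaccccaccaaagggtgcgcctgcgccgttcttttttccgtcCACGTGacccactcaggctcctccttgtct
The first base of the E-box lay at 10 in PNO1, 15 in MRTO4, −5 in RRP9 and −10 in UTP20, counted from the RefSeq start. RRP9, a protein of the U3 particle, had a log2 difference of −0.26 (called in 4 of 8 fits), and UTP20, a processing factor of the small subunit, −0.25 (3 of 8).

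MYC itself had no call. It was at 93.8 and 92.8 FPKM in DMSO, 83.1 and 90.8 under olaparib, 125 and 123 under palbociclib, and 111 and 119.7 under both drugs, a difference of −0.11 (SE 0.04, limma adjusted p = 0.0927). The olaparib libraries were lower in both states, whereas palbociclib libraries were higher than DMSO. Of 18 tested genes of the MYC and polyamine list 6 fell (33.3%, beside 10.9% of all genes) and none rose in limma. In the strongest expression class of protein-coding genes 28.9% were called lower. The deepest fall was in ODC1, the entry enzyme of polyamine synthesis. MXD4, a repressor of the MYC network, had the highest value of the list, 0.41 (SE 0.11), just short of a call (limma adjusted p = 0.05002). ODC1 (chromosome 2, 10439968 to 10448504, minus strand) was at 115 and 123 FPKM in DMSO, 89.5 and 89.6 under olaparib, 73.4 and 70.3 under palbociclib, and 59.4 and 59.8 under both drugs. The groups did not overlap and ODC1 fell by 0.33 (SE 0.04, limma adjusted p = 0.0113). The next steps of the pathway fell too, AMD1 by 0.24 (SE 0.04) and SMS by 0.13 (SE 0.02), with limma adjusted p of 0.0134 and 0.0169, both lost without DMSO replicate 1, olaparib replicate 1 or palbociclib replicate 1. SRM, which makes spermidine, and the MYC network partners MAX and MLX were the other calls, in 2 to 4 of 8 fits. The list's count was 1 without each of those libraries, and 3 with TPM scaling or quantile normalisation.

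The structural proteins of the ribosome were without a call. None of the 56 tested cytosolic ribosomal protein genes was called by limma, and 2 lay below in both palbociclib states. Their median of −0.04 was 0.01 with TPM scaling and 0.03 with quantile normalisation, so its sign depended on the scaling.

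Charging and initiation factors of translation fell in 20 of 31 tested (64.5%, beside 10.9% of all genes and 28.9% of the strongest expression class). Their median was −0.17, and in 26 the olaparib libraries lay below in both states. GARS, glycyl-tRNA synthetase, was at 48.5 and 48.0 FPKM in DMSO, 36.6 and 37.1 under olaparib, 35.7 and 33.0 under palbociclib, and 29.03 and 29.7 under both drugs. The groups with olaparib were lower in both states and the log2 difference was −0.30 (SE 0.04, limma adjusted p = 0.0113). YARS, IARS and the initiation factor gene EIF2S2 had differences of −0.27 (SE 0.03), −0.20 (SE 0.03) and −0.27 (SE 0.04), those of IARS and EIF2S2 not called without DMSO replicate 1. The count was 3 without DMSO replicate 1, 6 without olaparib replicate 1, 6 without palbociclib replicate 1 and 9 with quantile normalisation.

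Several synthetases are also targets of ATF4, the transcription factor of amino acid shortage. In the ATF4 list 15 of 23 tested genes fell (65.2%, beside 10.9% of all genes and 28.9% of the strongest expression class). None rose in limma, and the median was −0.20. SLC7A5 (chromosome 16, 87830023 to 87869488, minus strand), a transporter of large neutral amino acids, was at 117 and 114 FPKM in DMSO, 89.1 and 99.5 under olaparib, 69.1 and 68.5 under palbociclib, and 55.3 and 57.7 under both drugs. The olaparib libraries were lower in both states and the difference was −0.29 (SE 0.04, limma adjusted p = 0.0113). The cationic amino acid transporter SLC7A1, the tRNA exporter XPOT and MTHFD2, of mitochondrial folate metabolism, had differences of −0.24 (SE 0.03), −0.24 (SE 0.03) and −0.28 (SE 0.05). XPOT was called in 6 and MTHFD2 in 4 of 8 fits. CHAC1, which degrades glutathione, was among the deepest falls at −0.40 (SE 0.10, limma adjusted p = 0.0397), but at only 0.910 to 2.15 FPKM, and was called in 2 of 8 fits with a library left out. The count of ATF4 genes was 2 when DMSO replicate 1 was left out, 4 without olaparib replicate 1, and 3 when palbociclib replicate 1 was dropped. TPM scaling or quantile normalisation gave 10.

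Chaperones fell in 13 of 22 tested heat shock genes (59.1%, beside 10.9% of all genes and 28.9% of the strongest expression class). The median of the list was −0.18. HSPA8 (chromosome 11, 123057489 to 123063230, minus strand), the constitutive cytosolic HSP70, was at 614 and 637 FPKM in DMSO, 477 and 471 under olaparib, 429.9 and 397 under palbociclib, and 366 and 355 under both drugs. It was lower in the olaparib libraries of both states, with a difference of −0.30 (SE 0.05, limma adjusted p = 0.0134), not called without DMSO replicate 1, olaparib replicate 1 or palbociclib replicate 1. HSPA9 of mitochondria and HSPA4 had differences of −0.20 (SE 0.03) and −0.21 (SE 0.03), and the ribosome-bound DNAJC2 one of −0.25 (SE 0.04), called in 6, 4 and 4 of 8 fits. The count was 0 without DMSO replicate 1, 1 without olaparib replicate 1, 1 without palbociclib replicate 1, 8 with TPM scaling and 4 with quantile normalisation. Of 20 tested genes of the unfolded protein response 7 fell, a share nearer the 28.9% of the strongest expression class than the 10.9% of all genes. XBP1 fell by 0.18 (SE 0.04, limma adjusted p = 0.0190), with differences of −0.21 to −0.17 over the fits with a library left out. Its call was lost without DMSO replicate 1, olaparib replicate 1 or palbociclib replicate 1, as were those of the other members. No member of that list was called with TPM scaling.

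S phase genes fell in the presence of olaparib on top of lower levels with palbociclib. Of 55 DNA replication genes, all tested, 31 fell in limma (56.4%, beside 10.9% of all genes and 28.9% of the strongest expression class). None rose, the median was −0.14, and 37 lay below in both palbociclib states. RRM2 (chromosome 2, 10120698 to 10131419), the S phase subunit of ribonucleotide reductase, was at 82.6 and 84.2 FPKM in DMSO, 68.5 and 68.0 under olaparib, 44.7 and 42.3 under palbociclib, and 37.2 and 35.6 under both drugs. The 4 groups did not overlap and the difference was −0.27 (SE 0.03, limma adjusted p = 0.0113). It was about equal in the palbociclib states, −0.29 (SE 0.04) without and −0.25 (SE 0.04) with the drug. The clamp loader subunit RFC3 had a difference of −0.26 (SE 0.03), the helicase subunit MCM6 −0.18 (SE 0.02) and the licensing factor CDC6 −0.18 (SE 0.02), each with a limma adjusted p of 0.0113. Median effects of the list were −0.14 without and −0.13 with palbociclib. The count was 7 without DMSO replicate 1, 8 without olaparib replicate 1, 19 without olaparib replicate 2 and 10 without palbociclib replicate 1. It was 15 with TPM scaling and 15 with quantile normalisation.

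Mitotic genes fell in 15 of 51 tested (29.4%, beside 10.9% of all genes), with a median of −0.07. That share was near the 28.9% called lower in the strongest expression class of protein-coding genes. CCNA2, cyclin A, was at 66.3 and 71.6 FPKM in DMSO, 59.6 and 60.6 under olaparib, 29.3 and 28.4 under palbociclib, and 25.2 and 25.5 under both drugs, a difference of −0.19 (SE 0.03, limma adjusted p = 0.0134), not called without olaparib replicate 1 or palbociclib replicate 1. The palbociclib libraries lay farther below DMSO than the olaparib libraries did, and within each state the olaparib libraries were the lower. The transcription factor gene MYBL2 and the kinesin gene KIF23 had differences of −0.25 (SE 0.04) and −0.17 (SE 0.03), each called in 4 of 8 fits. The letters TTTGAA or their reverse complement TTCAAA, the core of the CHR element of cell cycle promoters, were found in 26 of 41 mitotic windows (63.4%) and in 7 of the 13 windows of members that fell (53.8%). They were in 1 of 48 DNA replication windows (2.08%) and in 9.25% of windows of tested protein-coding genes. The count of mitotic genes that fell was 1 without DMSO replicate 1, 0 without olaparib replicate 1, 5 without olaparib replicate 2, 0 without palbociclib replicate 1, 9 without combination replicate 1 and 7 without combination replicate 2. It was 4 with TPM scaling, 4 with quantile normalisation and 7 with median-of-ratios rescaling.

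Of 22 tested regulators of G1 exit, on which palbociclib acts, 7 fell (31.8%, beside 10.9% of all genes) and 1 rose in limma. The share that fell was near the 28.9% of the strongest expression class. The share that rose was near the 3.55% of all genes called higher. CDKN2D, which encodes the CDK4 inhibitor p19 and was named after its values were seen, rose by 0.19 (SE 0.05, limma adjusted p = 0.0370), called in 1 of 8 fits. TFDP1, the partner of E2F factors, fell by 0.23 (SE 0.03), and SKP2, which degrades the CDK inhibitor p27, by 0.18 (SE 0.02), both with a limma adjusted p of 0.0113. CDK4 was at 54.7 and 57.3 FPKM in DMSO, 48.4 and 52.3 under olaparib, 51.7 and 52.0 under palbociclib, and 44.8 and 49.3 under both drugs, a difference of −0.14 (SE 0.04, limma adjusted p = 0.0461) that was called in 1 of 8 fits with a library left out. CDK6 was below the filter, with a mean of 0.901 FPKM. RB1 stood at 8.30 to 10.2 FPKM in all libraries, with overlapping groups and a difference of −0.01 (SE 0.04, limma adjusted p = 0.881). E2F1 and CCND1 had differences of −0.09 (SE 0.05) and −0.07 (SE 0.03), with limma adjusted p of 0.246 and 0.133.

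The targets of the drug, PARP1 and PARP2, had no call, and the share of genes called lower varied between the repair pathways linked to its action. PARP1 (chromosome 1, 226360691 to 226408079, minus strand) was at 107 and 107 FPKM in DMSO, 98.8 and 100.5 under olaparib, 75.2 and 74.4 under palbociclib, and 71.6 and 72.8 under both drugs. The olaparib libraries were lower in both states by a log2 difference of −0.08 (SE 0.02), which was not called (limma adjusted p = 0.0675). PARP2 had −0.13 (SE 0.06, limma adjusted p = 0.139). Of 19 tested genes of ADP-ribose turnover 1 rose and 1 fell. Each was 5.26% of the list, beside 3.55% of all genes called higher and 10.9% called lower. Tankyrase TNKS rose by 0.13 (SE 0.03, limma adjusted p = 0.0392), a call that no fit with a library left out kept, and NUDT5, which cleaves free ADP-ribose, fell by 0.16 (SE 0.03, limma adjusted p = 0.0140), lost without DMSO replicate 1, olaparib replicate 1 or palbociclib replicate 1.

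In homologous recombination, the pathway whose loss sensitises cells to olaparib, 1 of 32 tested genes rose (RAD52) and 4 fell, among them RBBP8, EXO1 and RAD54L, close to the share called among all genes. RBBP8, which starts end resection as CtIP, had −0.21 (SE 0.03) and the nuclease EXO1 −0.18 (SE 0.03), with limma adjusted p of 0.0113 and 0.0127, EXO1 being lost also without DMSO replicate 1. RAD54L was called in 2 of 8 fits. BRCA1 and BRCA2 had differences of −0.08 (SE 0.03) and −0.13 (SE 0.05), neither called (limma adjusted p of 0.138 and 0.108). RAD52 rose by 0.16 (SE 0.03, limma adjusted p = 0.0250), in 2 of 8 fits with a library left out.

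Among 15 tested end joining genes 5 fell (33.3%, beside 10.9% of all genes and 28.9% of the strongest expression class). The KU subunits XRCC6 and XRCC5 were at −0.17 (SE 0.03) and −0.18 (SE 0.04), with limma adjusted p of 0.0138 and 0.0205, each called in 4 of 8 fits. The shieldin subunit SHLD2 and RIF1, which protect ends from resection, had −0.22 (SE 0.05) and −0.16 (SE 0.04), and PRKDC, the kinase recruited by KU, was the other call, in 2, 1 and 1 of 8 fits. Of 18 tested checkpoint genes 4 fell (22.2%). Among them were CHEK1, the kinase downstream of ATR, at −0.14 (SE 0.03), and CLSPN, its adaptor, at −0.23 (SE 0.05). Their limma adjusted p were 0.0238 and 0.0277, each called in 2 of 8 fits. Of 20 base excision repair genes TDG and NTHL1 fell, and of 16 Fanconi genes UBE2T, shares below the 10.9% of all genes called lower. They were called in 4, 1 and 3 of 8 fits. The end joining and checkpoint counts were both 0 without DMSO replicate 1, olaparib replicate 1 or palbociclib replicate 1. With TPM scaling they were 1 and 0.

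Among pathways of energy metabolism, 10 of 23 tested glycolysis and hypoxia genes fell (43.5%, beside 10.9% of all genes), led by LDHA, lactate dehydrogenase. LDHA was at 240.2 and 243 FPKM in DMSO, 203 and 198 under olaparib, 139 and 132 under palbociclib, and 116 and 116 under both drugs, a difference of −0.25 (SE 0.03, limma adjusted p = 0.0113) without overlap in either state. HK2, the hexokinase of growing cells, had −0.20 (SE 0.03, limma adjusted p = 0.0115). Nuclear genes of the respiratory chain fell in 9 of 26 tested (34.6%, beside 10.9% of all genes and 28.9% of the strongest expression class). CYCS, cytochrome c, was at −0.24 (SE 0.04) and SDHB at −0.20 (SE 0.04), each called in 4 of 8 fits. None of the 15 transcripts of the mitochondrial genome was called by limma. The glycolysis count was 2 without DMSO replicate 1, 4 without olaparib replicate 1, 2 without palbociclib replicate 1, 6 with TPM scaling and 2 with quantile normalisation. The respiratory count was 0 without each of those libraries, 5 without olaparib replicate 2, 4 with TPM scaling and 1 with quantile normalisation. Of 22 tested oxidative stress genes 7 fell (31.8%, beside 10.9% of all genes and 28.9% of the strongest expression class). Among them TKT was at −0.15 (SE 0.03) and PRDX1 at −0.12 (SE 0.03), called in 4 and 3 of 8 fits. Of 25 lipid synthesis genes 3 fell, near the 10.9% of all genes called lower. No member of the oxidative stress or lipid synthesis list was called under TPM scaling or quantile normalisation.

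Of 23 tested immediate early and MAP kinase feedback genes 3 fell, SPRY4, DUSP6 and SPRY2, near the 10.9% of all genes called lower, and none rose in limma. DUSP6, the ERK phosphatase, was at 24.1 and 22.4 FPKM in DMSO, 18.2 and 18.7 under olaparib, 39.7 and 35.4 under palbociclib, and 34.7 and 32.3 under both drugs. Olaparib libraries were lower in both states, while palbociclib libraries were higher than DMSO, and the olaparib difference was −0.24 (SE 0.05, limma adjusted p = 0.0255), called in 2 of 8 fits with a library left out. SPRY4 and SPRY2, which damp receptor tyrosine kinase signalling, had −0.23 (SE 0.04) and −0.14 (SE 0.03), called in 6 and 3 of 8 fits. DUSP2, another phosphatase of MAP kinases, was among the deepest falls with −0.36 (SE 0.05, limma adjusted p = 0.0113). With TPM scaling or quantile normalisation 1 of the 3 list members kept a call.

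The remaining deep falls were of mixed function. PTGS2, which encodes COX-2, was at 2.84 and 2.38 FPKM in DMSO, 1.82 and 1.53 under olaparib, 6.72 and 5.83 under palbociclib, and 5.22 and 4.07 under both drugs. The groups did not overlap within a state and the difference was −0.40 (SE 0.08, limma adjusted p = 0.0201), called in 3 of 8 fits with a library left out. TFRC (chromosome 3, 196027183 to 196082189, minus strand), the transferrin receptor, was at 50.3 and 49.0 FPKM in DMSO, 37.2 and 34.9 under olaparib, 28.6 and 26.6 under palbociclib, and 24.8 and 22.4 under both drugs. It fell by 0.34 (SE 0.06, limma adjusted p = 0.0147), lost without DMSO replicate 1, olaparib replicate 1 or palbociclib replicate 1. PLD6, a mitochondrial enzyme of piRNA production, and FABP5, a fatty acid carrier, had −0.39 (SE 0.04) and −0.34 (SE 0.06), FABP5 being called in 4 of 8 fits. CDK2AP1, an inhibitor of CDK2, had −0.36 (SE 0.08, limma adjusted p = 0.0243) and differed more with palbociclib, −0.54 (SE 0.07), than without, −0.18 (SE 0.07), an interaction with an adjusted p of 0.431. It was called in 4 of 8 fits. TMEM158, POLR3G of RNA polymerase III and YRDC, which modifies tRNA, completed the 15, called in 4, 4 and 2 of 8 fits.

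Outside the p53 lists few groups rose. Of 36 tested lysosome and autophagy genes 5 rose in limma (NEU1, TPP1, GABARAPL1, ULK1 and GAA), 13.9% beside 3.55% of all genes, and none fell. In 14 of the 36 the olaparib libraries lay above in both states, as they did for 8.57% of all genes. TPP1, a lysosomal peptidase, rose by 0.17 (SE 0.04, limma adjusted p = 0.0218), from 6.74 and 6.16 FPKM to 7.33 and 7.80 without palbociclib and from 9.25 and 9.45 to 10.5 and 10.4 with it. ULK1, the kinase that starts autophagy, rose by 0.26 (SE 0.06, limma adjusted p = 0.0354). The 5 genes were called in 2 or 3 of 8 fits. This count was 13 with TPM scaling, 11 with quantile normalisation and 12 with voom. Without DMSO replicate 1, olaparib replicate 1 or palbociclib replicate 1 it was 0, 2 without olaparib replicate 2, 8 without combination replicate 1 and 1 without combination replicate 2. ADAMTS7 and PBXIP1, which belong to no list, were among the 15 largest rises with 0.53 (SE 0.07) and 0.51 (SE 0.04) and were called in 7 of 8 fits with a library left out. DEFB131B, also among the 15 and outside the p53 lists, was called in 3 of 8, with differences of 0.48 to 0.68 over those fits.

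Interferon and antigen presentation genes held few calls, in both directions. Of 17 tested interferon genes 2 rose (STAT2 and IFI6), 11.8% beside 3.55% of all genes. The 3 that fell, among them IFIT1 and IFITM2, were 17.6%, beside 10.9% of all genes. IFI6, IFIT1 and IFITM2 were each called in 2 of 8 fits. STAT2, a subunit of the interferon-responsive factor, rose by 0.24 (SE 0.04, limma adjusted p = 0.0127), from 3.89 and 3.68 FPKM to 4.58 and 4.62 without palbociclib and from 6.39 and 6.89 to 8.46 and 7.84 with it. No interferon gene that fell was called with TPM scaling or quantile normalisation. Of 10 tested antigen presentation genes TAPBP and TAP1 rose and CANX fell, called in 1, 0 and 2 of 8 fits. Of 6 tested NF-kB genes NFKB1 and SOD2 fell, called in 4 and 2. None of 18 YAP and TGF-beta targets or 10 replication-dependent histone genes was called by limma.

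Of the mesenchymal markers COL1A2 rose by 0.18 (SE 0.04, limma adjusted p = 0.0259) and ACTA2 fell by 0.31 (SE 0.07, limma adjusted p = 0.0230), each called in 3 of 8 fits. The summed level of the list was 799 to 1038 FPKM with olaparib and 803 to 1080 without. Summed epithelial markers were at 1.71 to 2.65 FPKM with olaparib and 1.13 to 2.30 without, higher with olaparib within each palbociclib state. Their exact permutation p was 0.0556, the smallest possible, and 0.25 after adjustment. Summed immune markers were at 1.89 to 2.60 and 1.90 to 3.11 FPKM (exact permutation p 0.278). The part of other cell types in these results was not tested further. The mean of each epithelial, immune and endothelial marker was below 1 FPKM as given above.

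**Figure D4:**
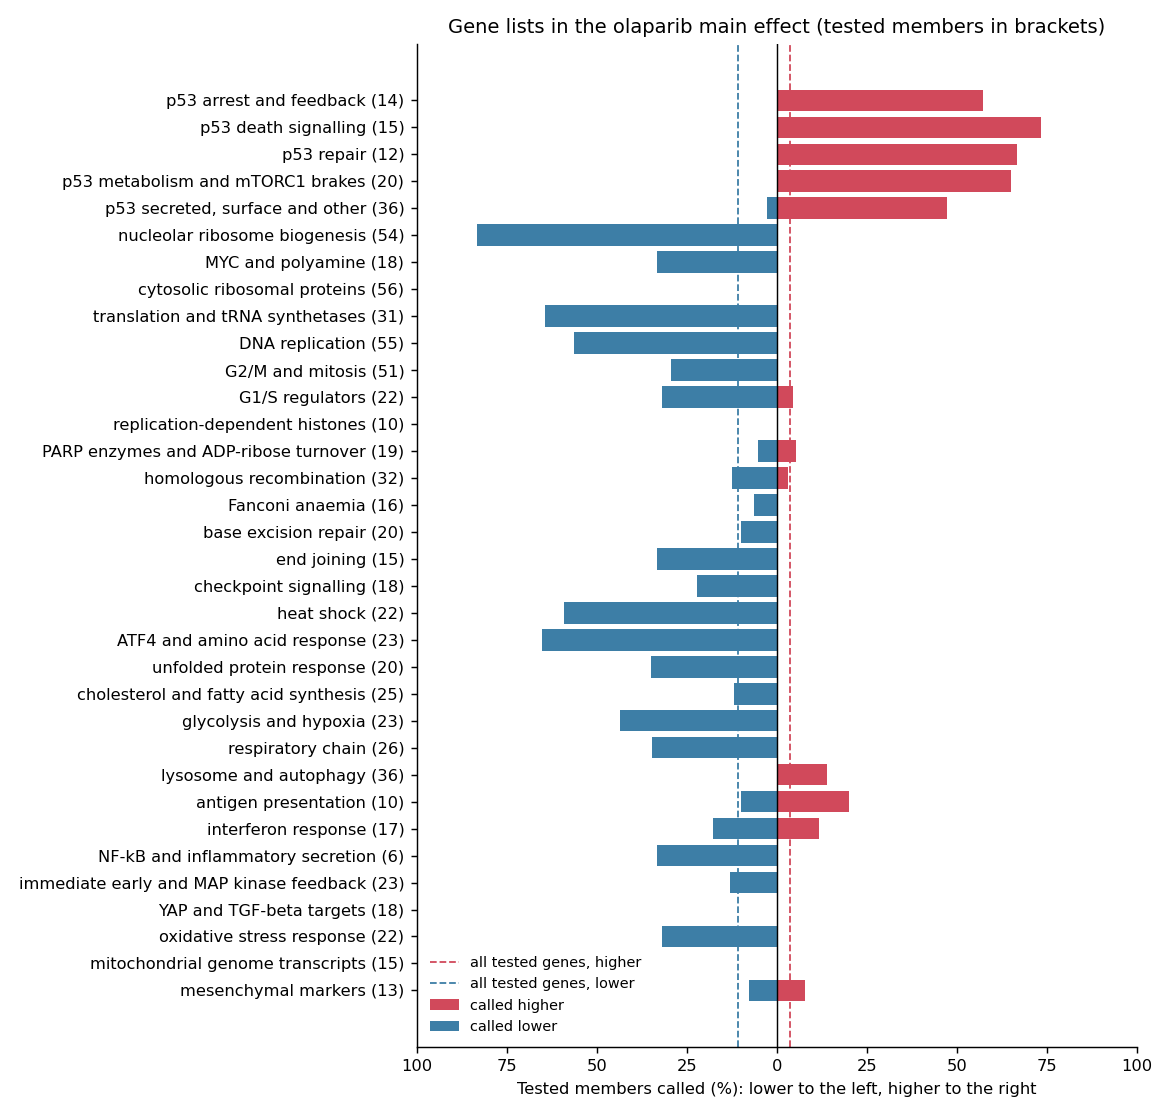
Share of tested members called lower (blue, to the left) and higher (red, to the right) in the averaged olaparib effect, in percent, for each gene list (vertical axis, tested members in brackets). Dashed lines mark the shares over all tested genes, 10.9% lower and 3.55% higher. The 5 p53 lists extend to the right of the red line, and the nucleolar, translation, ATF4, heat shock and DNA replication lists reach farthest to the left.

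The largest log2 differences of noncoding genes were mostly in short RNAs at low levels. MIR659 was listed at 0 and 0.349 FPKM with DMSO and at 0.881 and 1.08 with olaparib (called in 6 of 8 fits), and SNORD93, a small nucleolar RNA, at 5.40 and 2.29 with DMSO and 1.73 and 1.42 with olaparib. With palbociclib SNORD93 was at 1.85 and 2.54 FPKM and with the combination at 0.617 and 1.04. Its difference was −0.82 (SE 0.20, limma adjusted p = 0.0311) and was called in 0 of 8 fits with a library left out. A single read is worth a large FPKM in genes this short. PURPL (chromosome 5, 27472292 to 27496401), a long noncoding RNA known as a p53 target and named here after its values were seen, was at a higher level and rose by 0.67 (SE 0.05, limma adjusted p = 0.00927). Whether PURPL kept its call with a library left out is not given here.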

How the data were processed

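Polyadenylated RNA of 8 A2780 libraries was sequenced, and the table the authors deposited gives FPKM for 31721 Ensembl genes. CASAVA 1.8, STAR 2.5.1b and HTSeq 0.6.0 are named without role or order, per the submitters' processing notes, with the builds GRCh38 and hg38. The sources used here do not say whether counting used strand, so antisense, overlapping and near-identical genes (HSPA8, FABP5 and CYCS have many pseudogenes) are uncertain. With GENCODE v29 exon lengths, 28635 genes (90.3%) gave whole reads within 0.01, and the other 3086 with a searched length. The libraries' deposited scaling equalled median-of-ratios size factors of these reads (largest gap 2.22e-14%) and departed from library totals by up to 6.15%, so FPKM sums differ.

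On the log2(FPKM + 1) scale, each gene was fitted in limma 3.58.1 (R 4.3.3) with terms for palbociclib and olaparib, a trended prior (3.03 degrees of freedom beside 5 residual) and Benjamini-Hochberg adjustment over the 12443 genes with a mean of at least 1 FPKM. The other 19278 genes were not tested. The log2 scale with 1 added understates changes of weakly expressed genes, and tests were two-sided. Effects in each palbociclib state and their difference came from a fit with 1 mean per group. Errors of differences are standard errors and errors of FPKM are SD over n = 2. The code was tested on simulated data.

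The members and lists were chosen with earlier results of these data known. Named genes were the 15 protein-coding genes with the highest and the 15 with the lowest difference among those called and separated in both palbociclib states, up to 4 called members of each of 39 lists with the smallest adjusted p, genes fixed by name (PARP1, PARP2, CDKN1A, MDM2, MYC, CDK4, CDK6, RB1, E2F1, CCND1, BRCA1 and BRCA2) and 5 noncoding genes at each end. Some genes that this rule takes are not reported here. Alternatives covered the pseudocount, the filter, the scaling, the block terms, the prior, voom on the recovered reads and leaving out each library.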

Additional observations from a re-analysis of the deposited data

Results flagged for a closer look

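A single gene differed between the palbociclib states past an adjusted p of 0.05 in limma. It is ENSG00000274519, for which GENCODE v29 and the gene name table give no symbol. It stood at 5.04 and 4.44 FPKM in DMSO, 7.01 and 8.62 under olaparib, 12.7 and 11.8 under palbociclib, and 4.49 and 4.41 under both drugs. The olaparib effect with palbociclib minus that without was −1.90 on the log2 scale (SE 0.13, limma adjusted p = 0.0221). The olaparib libraries were higher without palbociclib and lower with it, with no overlap in either state, and the averaged effect was −0.33 (limma adjusted p = 0.542). No group held the 4 libraries needed to look for a sample far from the others within it.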

How the results depend on the processing

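Calls were few without a filter on low values (579 genes, 107 higher and 472 lower, with 31 p53 targets higher and 15 nucleolar genes lower) and nearly absent without the palbociclib block (1 gene, 1 higher and 0 lower, with 1 p53 target and 0 nucleolar genes). TPM scaling gave 765 higher and 555 lower, quantile normalisation 1135 calls with 570 lower and 24 nucleolar genes, voom 1029 higher, and voom with library totals, chosen after seeing the data, 1407 higher. With a library left out the calls ran from 0 to 2170, the higher from 0 to 691, the lower from 0 to 1518, p53 targets from 0 to 60 and nucleolar genes from 0 to 44. The contrast without palbociclib then gave 13 to 1956 calls and that with palbociclib 0 to 2. At a minimum of 1 on the log2 scale, the share separated the same way in the other state was 33.3% for higher and 0% for lower genes chosen without palbociclib, and 12.5% for higher genes chosen with it. At 0.3 the lower genes chosen without palbociclib gave 53.5%, and those chosen with it 29.4%. Among uncalled genes signs turned under quantile normalisation for PARP1 (0.0182) and CCND1 (0.0179). For RB1 they turned with TPM scaling (0.0361), quantile normalisation (0.0179), median-of-ratios rescaling (0.0101), voom (0.00719), voom with library totals (0.0306) and without olaparib replicate 2. With a library left out RB1 ran from −0.0497 to 0.0302. The cause was not tested. The replicate block gave 1726 calls, 413 higher and 1313 lower. Replicate numbers did not pair the samples, since deviations of same-numbered libraries correlated at −0.0467 to 0.0342 over 6 pairs of groups. Over all settings, values of named genes stayed on the same side of the threshold in 2129 of the refits, lost a call in 839, gained it in 1 and changed sign in 8. With 2 libraries a group the precision is limited by their number.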

Other observations

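The share of genes called also varied with gene length. With tested protein-coding genes ranked by genomic span into 5 equal classes, 11.4% were called lower in the shortest, 16.1% in the middle and 8.06% in the longest class, and the share called higher was 3.59%, 4.03% and 3.10%. By exon length 15.2% of the shortest class and 7.96% of the longest were called lower.

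Apart from ENSG00000274519, the genes called in the contrast with palbociclib were a long noncoding RNA and a small nuclear RNA pseudogene. AC092720.1 was at 11.7 and 9.94 FPKM with palbociclib and 1.89 and 1.98 with the combination, and at 7.73 and 8.89 with DMSO and 6.37 and 9.43 with olaparib. RNU7-141P was at 0.735 and 1.01 FPKM with palbociclib and 4.42 and 4.34 with the combination, and at 1.98 and 2.73 with DMSO and 2.07 and 2.26 with olaparib. In both genes the olaparib and DMSO libraries overlapped, whereas the combination and palbociclib libraries did not.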
